A study of Rattus norvegicus with 12 samples.

Results

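The genes described here are 9 regulators that act on the ubiquitin-dependent step between cytokine receptors and NF-κB, or on the messages that NF-κB induces. They are Tnfaip3 (A20), Tnip1 (ABIN-1), Cyld, Birc2 (cIAP1), Birc3 (cIAP2), Traf1, Traf2, Traf3 and Zc3h12a (Regnase-1). They were chosen by symbol, with earlier results of these data known, and all 9 were found among the 34034 gene symbols of the count table. Of these, 8 passed the filter on low counts (CPM, counts scaled to 1e+06 per library, above 1 in at least 2 libraries) and were tested. Traf1 did not pass and is given by its counts.

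RNA was sequenced from INS-1E, a wild-type rat insulinoma line used as a β-cell model, in 4 groups of 3 libraries labelled as biological replicates. Untreated cells received no cytokine. IL-1βlow cells were preconditioned with 10 pg/ml IL-1β for 72 h, CYT cells were challenged with 100 pg/ml IL-1β and 5 ng/ml IFN-γ for 16 h, and IL-1βlow + CYT cells received the preconditioning and then, in renewed medium, the challenge. The labels do not state whether IL-1βlow cells also spent 16 h in renewed medium without cytokine before harvest. A single line represents each group, so the p-values measure the spread between cultures of that line and not between animals.

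When IL-1 or TNF receptors are engaged, TRAF adaptors and the ubiquitin ligases cIAP1 and cIAP2 build ubiquitin chains on which kinase complexes assemble, and IκB is then degraded so that NF-κB can enter the nucleus. A20, together with its binding partner ABIN-1, and CYLD take these chains apart or occupy them. TRAF3, TRAF2 and the cIAPs also keep the kinase NIK at low levels, which holds the alternative, p100-processing NF-κB pathway off. Regnase-1 is an endoribonuclease that cleaves stem-loops in inflammatory messages. Several of these genes are themselves NF-κB targets, and A20 is known in β-cells as a brake on NF-κB and on cytokine-induced death.

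Promoter windows were available in RefSeq (assembly GRCr8, not the build used for counting) for 7 of the 9 genes, as 250 bases before and 50 after the start site. The usual degenerate 10-base κB motif was searched on both strands and was found in 3 of them, Tnfaip3, Tnip1 and Traf3, whereas 4.18% of all 33469 windows of 300 bases held it. The upstream 250 bases of these genes are shown so that the spacing of the matches can be seen, and those of Traf2, which had no match, because its transcript differed most clearly between the challenged groups. They are read 5′ to 3′ on the gene's strand and end at the base before the start site, with κB matches in capitals. They lie at chr1:15543980-15544229 (minus strand) for Tnfaip3, chr10:39584962-39585211 (minus) for Tnip1, chr6:136026799-136027048 (plus) for Traf3 and chr3:28764644-28764893 (minus) for Traf2.
Tnfaip3: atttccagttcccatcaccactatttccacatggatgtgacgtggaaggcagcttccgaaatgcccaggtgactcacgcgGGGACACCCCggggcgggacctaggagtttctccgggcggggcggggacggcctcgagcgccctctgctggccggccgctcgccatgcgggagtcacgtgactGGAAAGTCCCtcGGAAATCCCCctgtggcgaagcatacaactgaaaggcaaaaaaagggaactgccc
Tnip1: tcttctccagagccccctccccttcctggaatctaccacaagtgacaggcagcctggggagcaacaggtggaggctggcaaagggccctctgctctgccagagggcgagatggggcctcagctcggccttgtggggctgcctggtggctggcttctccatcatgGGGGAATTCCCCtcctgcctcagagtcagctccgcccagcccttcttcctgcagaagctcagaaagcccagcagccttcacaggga
Traf3: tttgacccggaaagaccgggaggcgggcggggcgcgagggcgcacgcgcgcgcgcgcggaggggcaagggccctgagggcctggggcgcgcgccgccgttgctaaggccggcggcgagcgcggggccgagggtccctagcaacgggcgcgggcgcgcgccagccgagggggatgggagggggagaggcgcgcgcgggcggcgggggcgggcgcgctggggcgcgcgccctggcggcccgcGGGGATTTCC
Traf2: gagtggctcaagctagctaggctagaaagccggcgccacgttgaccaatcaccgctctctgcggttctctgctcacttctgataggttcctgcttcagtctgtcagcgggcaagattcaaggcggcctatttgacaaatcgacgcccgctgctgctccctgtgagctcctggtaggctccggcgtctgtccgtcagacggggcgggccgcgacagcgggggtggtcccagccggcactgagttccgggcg
Tnfaip3 held 3 separate matches, whose first bases lay 170, 67 and 55 bases before the start site. In Tnip1, 4 matches on both strands overlapped in a single palindromic run that began 86 bases before the start site. The match in Traf3 ended at the base before the start site. No κB match was found in the windows of Birc2, Traf1, Traf2 and Zc3h12a. A match describes letters only and says nothing about binding.

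Total counts ran from 15812640 to 20246806 per library, and the 9 genes together took 247 to 1003 counts per 1e+06. The β-cell identity of the line was checked with 6 markers (Ins1, Ins2, Iapp, Chga, Slc2a2 and Pdx1), all of which were tested. Their summed level was 41900 to 48700 CPM in untreated, 37400 to 43900 in IL-1βlow, 13600 to 14600 in CYT and 19400 to 24900 in IL-1βlow + CYT libraries. It therefore moved with the challenge in the same libraries as the regulators below, and its part in their values was not tested. Ptprc, the pan-leukocyte marker, Dcn of fibroblasts, and Prss1 and Cpa1 of exocrine cells were at 0 counts in every library. Gcg, the α-cell hormone, reached 367 CPM, with group means of 265, 210, 37.3 and 101 CPM from untreated to IL-1βlow + CYT. Of the 2 non-β islet hormone genes tested, 1 was called lower after CYT and 1 higher in IL-1βlow + CYT against CYT. The remaining markers were low, and they did not all stay level either. The summed leukocyte list (4 genes) was 0.355 to 1.15 CPM in untreated, 0.513 to 1.17 in IL-1βlow, 1.98 to 3.21 in CYT and 3.04 to 4.52 CPM in IL-1βlow + CYT libraries. Within it Adgre1, a macrophage receptor gene, had 0 to 1 counts in unchallenged, 14 to 36 in CYT and 37 to 58 in IL-1βlow + CYT libraries and was called higher after CYT (adjusted p = 3.4e-05). The summed fibroblast list (3 genes) was 0.401 to 0.651, 0.615 to 1.54, 0.613 to 0.978 and 1.13 to 2.19 CPM in the same order. Within it Col1a2 was called higher in IL-1βlow + CYT than in CYT cells (log2 fold change 2.30, adjusted p = 0.0039), on 13 to 31 against 3 to 6 counts. Endothelial and exocrine lists stayed at or under 0.304 CPM. The part of these markers in the values of the regulators was not tested. In bulk RNA, a change in the number of expressing cells and a change in the RNA per cell cannot be told apart.

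CYT raised the transcripts of 5 of the 8 regulators tested, Zc3h12a, Birc3, Tnfaip3, Tnip1 and Traf2, and lowered none. A gene was called changed at an adjusted p under 0.01 (edgeR's quasi-likelihood test, Benjamini-Hochberg over 14324 genes) with an absolute log2 fold change above 1, or above 0.6 for IL-1βlow against untreated cells. By that rule 10.0% of all genes tested were higher and 11.6% lower after CYT. The median log2 fold change was 2.26 over the 8 regulators and -0.04 over all genes tested. Birc2, Cyld and Traf3 did not pass. In IL-1βlow + CYT against CYT, 1 of the 8 regulators, Traf2, was called lower, where 5.92% of all genes were. Birc3 and Zc3h12a were lower at an adjusted p under 0.01 but short of the fold change minimum. For Tnfaip3 and Tnip1 no difference was detected. Both comparisons use the same CYT libraries, so a fall in the second is not independent of a rise in the first.

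**Figure D1:**
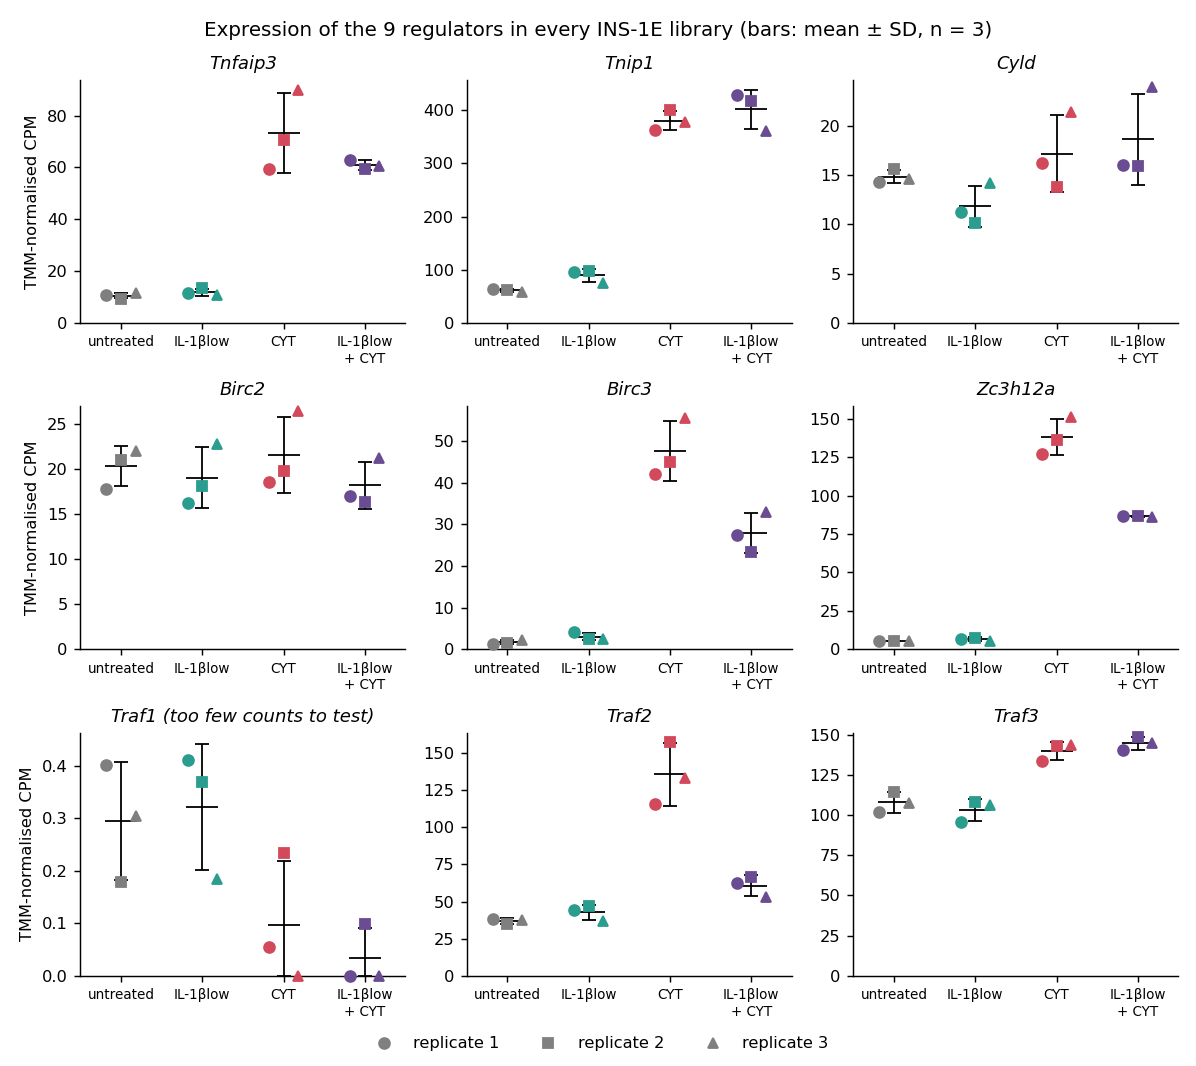
TMM-normalised CPM of the 9 regulators in each library (points, shaped by replicate number, on linear axes from 0) with the mean and SD of each group of 3 (bars, the lower end stopped at 0). The CYT and IL-1βlow + CYT points overlap for Tnfaip3 and Tnip1, lie apart for Birc3, Traf2 and Zc3h12a, and Traf1 stays under 1 CPM throughout.

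Tnfaip3 encodes A20, which edits and caps ubiquitin chains on RIPK1, TRAF6 and the IKK complex. Tnfaip3 was measured at 10.7, 9.35 and 11.5 CPM in untreated, 11.5, 13.3 and 10.6 in IL-1βlow, 59.5, 70.5 and 89.8 in CYT, and 63.0, 59.4 and 60.4 CPM in IL-1βlow + CYT libraries. All 6 challenged libraries were above all 6 others, and the ranges of the 2 challenged groups overlapped. Relative to untreated cells Tnfaip3 rose 6.98-fold after CYT (log2 fold change 2.80, SE 0.148, adjusted p = 1.3e-09) and 5.80-fold after IL-1βlow + CYT (adjusted p = 1.1e-08). Between IL-1βlow + CYT and CYT cells its log2 fold change was -0.27 (95% interval -0.57 to 0.04, adjusted p = 0.11). This does not show equal levels in both groups. IL-1βlow alone gave 0.17 (adjusted p = 0.61).

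Tnip1 encodes ABIN-1, the ubiquitin-binding protein that brings A20 to its substrates. Tnip1 was measured at 63.0, 62.5 and 57.6 CPM in untreated, 96.1, 97.5 and 74.8 in IL-1βlow, 363.5, 400.3 and 378 in CYT, and 429, 417 and 360.4 CPM in IL-1βlow + CYT libraries. The 3 IL-1βlow libraries were all above the 3 untreated ones, and the ranges of the challenged groups overlapped. CYT raised it 6.24-fold (log2 fold change 2.64, SE 0.109, adjusted p = 1.3e-10) and IL-1βlow + CYT raised it 6.59-fold (2.72, adjusted p = 2.6e-10). The difference between the challenged groups was 0.08 (95% interval -0.16 to 0.31, adjusted p = 0.54). For IL-1βlow against untreated cells the log2 fold change was 0.55 (SE 0.105, 95% interval 0.31 to 0.80, adjusted p = 0.017), which did not pass. Without the third IL-1βlow library, the lowest of its group, it was 0.67 and passed (adjusted p = 0.0029).

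Cyld, which removes linear and other non-degradative ubiquitin chains, was at 14.9 ± 0.678 (SD, n = 3) CPM in untreated, 11.9 ± 2.10 in IL-1βlow, 17.2 ± 3.91 in CYT and 18.7 ± 4.64 CPM in IL-1βlow + CYT cells. None of its comparisons passed. The CYT libraries overlapped with the untreated and the IL-1βlow + CYT libraries, whereas IL-1βlow libraries (10.1 to 14.2 CPM) lay just under the untreated ones (14.3 to 15.6 CPM) and the IL-1βlow + CYT libraries (15.9 to 24.0 CPM) just above them. The widest difference was between IL-1βlow + CYT and IL-1βlow cells, with a log2 fold change of 0.65 (95% interval 0.21 to 1.10, adjusted p = 0.038).

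Birc2 and Birc3 encode the paralogous ubiquitin ligases cIAP1 and cIAP2, which are recruited by TRAF2. Birc3 was near the lower limit of detection at rest and was the member with the largest fold change after CYT, whereas Birc2 passed in no comparison. Birc3 was measured at 1.32, 1.48 and 2.25 CPM in untreated, 4.05, 2.45 and 2.53 in IL-1βlow, 42.05, 44.9 and 55.7 in CYT, and 27.4, 23.4 and 33.05 CPM in IL-1βlow + CYT libraries. The 4 groups did not overlap, in the order untreated, IL-1βlow, IL-1βlow + CYT and CYT. The untreated values rest on 23 to 37 counts per library. Birc3 rose 28.3-fold after CYT (log2 fold change 4.82, SE 0.236, adjusted p = 6.2e-10). It was 1.70-fold lower in IL-1βlow + CYT than in CYT cells (-0.77, SE 0.180, 95% interval -1.18 to -0.35, adjusted p = 0.0027), short of the fold change minimum. IL-1βlow alone gave 0.86 (95% interval 0.23 to 1.48, adjusted p = 0.17), which did not pass. This difference passed in 1 of 9 alternatives, when the filter on low counts was dropped (0.88, adjusted p = 0.0047). It passed in 0 of the 12 fits that left out a single library. The first IL-1βlow library, at 4.05 CPM, lay above the others of its group (2.45 and 2.53 CPM).

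Birc2 was at 20.3 ± 2.22 (SD, n = 3) CPM in untreated, 19.0 ± 3.40 in IL-1βlow, 21.6 ± 4.22 in CYT and 18.2 ± 2.61 CPM in IL-1βlow + CYT cells, and all groups overlapped. The log2 fold change after CYT was 0.09 (95% interval -0.29 to 0.47, adjusted p = 0.65). Birc2 and Birc3 are neighbours in GRCr8 with 0 annotated genes between them, and reads from their similar stretches may have been split or lost in the counting. As a share of the counts assigned to both genes, Birc3 took 6.58 to 9.27% in untreated, 10.0 to 20.1% in IL-1βlow, 67.85 to 69.5% in CYT and 58.8 to 61.8% in IL-1βlow + CYT libraries. Such a share depends on the lengths of both transcripts but not on the depth of the library. The log2 ratio of Birc3 to Birc2 counts was higher by 4.75 in CYT than in untreated cells, lower by 0.53 in IL-1βlow + CYT than in CYT cells (a difference of -0.53), and higher by 0.93 in IL-1βlow than in untreated cells. No library overlapped in any of these comparisons, and each gave p = 0.1 in a two-sided exact permutation test, the smallest that 3 against 3 libraries allow (0.18 after adjustment over 9 tests). The summed level of both genes was 21.9 ± 2.63 CPM in untreated, 22.0 ± 2.85 in IL-1βlow, 69.1 ± 11.4 in CYT and 46.1 ± 7.39 CPM in IL-1βlow + CYT cells (SD, n = 3).

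**Figure D2:**
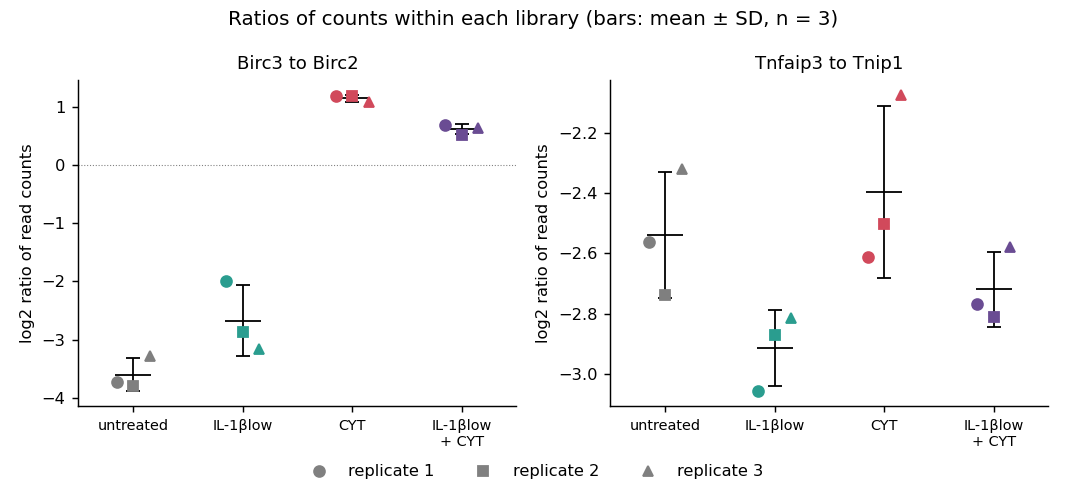
log2 ratio of the counts of paired regulators in each library (points) with the mean and SD of each group of 3 (bars), for Birc3 to Birc2 and for Tnfaip3 to Tnip1, with 0.5 added to each count and a separate scale for each pair. The Birc3 to Birc2 ratio has group means of -3.60, -2.67, 1.15 and 0.62 from untreated to IL-1βlow + CYT, while the group means of the Tnfaip3 to Tnip1 ratio lie between -2.91 and -2.40.

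For A20 and its partner ABIN-1 no difference in the count ratio could pass, since 3 against 3 libraries allow no p under 0.1. The ratio is therefore not shown to be stable. The log2 ratio of Tnfaip3 to Tnip1 differed by 0.14 between CYT and untreated cells (exact permutation test, two-sided p = 0.6, adjusted 0.771) and by -0.32 between IL-1βlow + CYT and CYT cells (exact p = 0.2, adjusted 0.3). It was lower by 0.37 in IL-1βlow than in untreated cells, a difference of -0.37, without overlap (exact p = 0.1, adjusted 0.18).

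Among the TRAF adaptors, Traf2 rose after CYT and was then the one regulator called lower in IL-1βlow + CYT than in CYT cells. TRAF2 is the scaffold that carries the cIAPs to receptors. Traf2 was measured at 38.15, 34.6 and 37.5 CPM in untreated, 44.5, 46.7 and 36.8 in IL-1βlow, 115.9, 157.6 and 133 in CYT, and 62.75, 66.4 and 53.1 CPM in IL-1βlow + CYT libraries. Only the untreated and IL-1βlow groups overlapped, and the IL-1βlow + CYT libraries lay nearer to the unchallenged than to the CYT libraries. Traf2 rose 3.69-fold after CYT (log2 fold change 1.88, SE 0.127, adjusted p = 1.5e-08) and was 2.23-fold lower in IL-1βlow + CYT than in CYT cells (-1.16, SE 0.123, 95% interval -1.44 to -0.87, adjusted p = 3.9e-06). Of all genes tested, 5.92% were called lower in that comparison, against 1 of the 8 regulators, whose median was -0.26 beside 0.02 for all genes. When the test required evidence of a difference beyond the minimum itself (glmTreat), Traf2 did not pass (adjusted p = 0.42).

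TRAF3 is the adaptor that brings NIK to the TRAF2 and cIAP complex. Traf3 was measured at 102, 115 and 108 CPM in untreated, 95.4, 108 and 106 in IL-1βlow, 134, 143 and 144 in CYT, and 140.4, 148.5 and 145 CPM in IL-1βlow + CYT libraries. Challenged libraries were all above unchallenged ones, by a small margin. The log2 fold change was 0.37 after CYT (SE 0.0771, adjusted p = 7.4e-04) and 0.42 after IL-1βlow + CYT (adjusted p = 0.001), which is significant but under the fold change minimum. Between the challenged groups it was 0.05 (95% interval -0.13 to 0.22, adjusted p = 0.64).

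TRAF1 lacks the RING domain of the other TRAFs and joins TRAF2 in mixed trimers. Traf1 was close to undetected, with 7, 3 and 5 counts in untreated, 8, 6 and 3 in IL-1βlow, 1, 4 and 0 in CYT, and 0, 2 and 0 counts in IL-1βlow + CYT libraries. The summed counts were 15, 17, 5 and 2, with exact Poisson 95% intervals of 8.40 to 24.7, 9.90 to 27.2, 1.62 to 11.7 and 0.242 to 7.22, which cover counting error only. Tested without the filter on low counts, its log2 fold change was -1.54 in CYT against untreated cells (adjusted p = 0.21) and -2.74 in IL-1βlow + CYT against untreated cells (adjusted p = 0.077). The log2 ratio of Traf1 to Traf2 counts, with 0.5 added to each, differed by -3.80 between CYT and untreated cells (two-sided exact permutation test, p = 0.1, adjusted 0.18), by 0.39 between IL-1βlow + CYT and CYT cells (exact p = 0.9) and by -0.10 between IL-1βlow and untreated cells (exact p = 0.7). Summed counts were lower in the challenged groups, but at this depth no fold change of Traf1 passed. The permutation test of the ratio could give no p under 0.1.

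Zc3h12a encodes Regnase-1. Zc3h12a was measured at 5.33, 5.56 and 5.17 CPM in untreated, 6.97, 7.48 and 5.43 in IL-1βlow, 127, 136 and 151 in CYT, and 86.5, 86.7 and 86.3 CPM in IL-1βlow + CYT libraries. The challenged groups did not overlap with each other or with the unchallenged ones. It rose 25.8-fold after CYT (log2 fold change 4.69, SE 0.119, adjusted p = 1.3e-12), the smallest adjusted p among the 8 regulators in that comparison. It rose 16.1-fold after IL-1βlow + CYT (4.01, adjusted p = 9.7e-12). Zc3h12a was 1.60-fold lower in IL-1βlow + CYT than in CYT cells (-0.68, SE 0.0954, 95% interval -0.90 to -0.46, adjusted p = 4.9e-05), which is significant but under the fold change minimum. IL-1βlow alone gave 0.31 (adjusted p = 0.31).

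**Figure D3:**
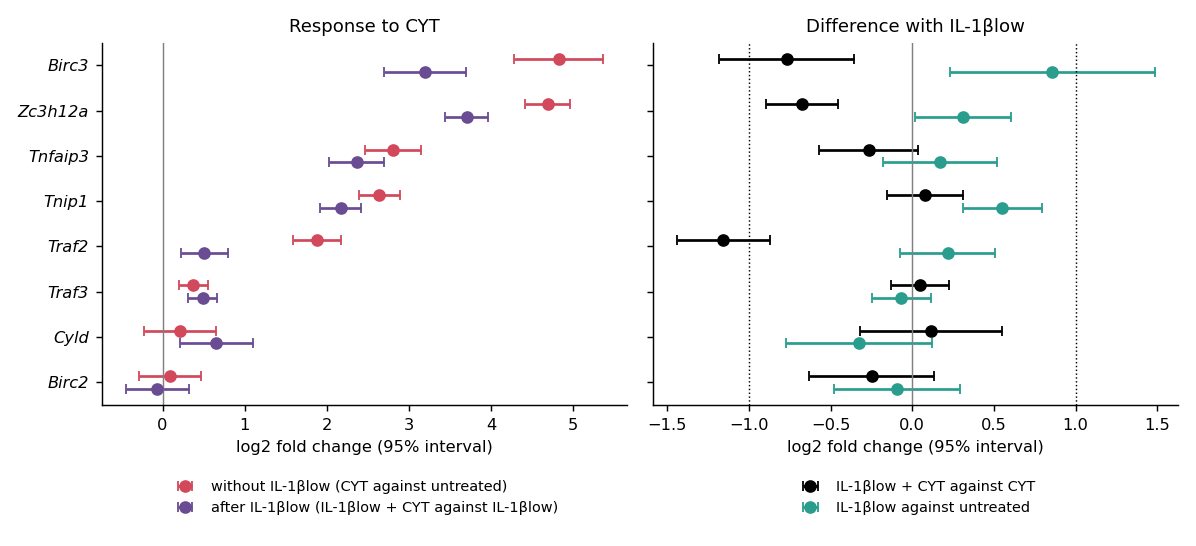
log2 fold change of the 8 regulators tested (points, with 95% intervals from the SE and 8 residual degrees of freedom), on the left for the challenge without (red) and after (purple) preconditioning, on the right for IL-1βlow + CYT against CYT (black) and IL-1βlow against untreated cells (green), with dotted lines at 1 in either direction. Birc3 and Zc3h12a lie above 4 for CYT against untreated on the left, and Traf2, at -1.16, is the only black point beyond a dotted line on the right.

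No regulator passed after preconditioning alone. Under edgeR's quasi-likelihood test 0 of 8 were called in IL-1βlow against untreated cells, where 0.433% of all genes were. DESeq2 and exactTest also called 0, and 3 regulators (Tnip1, Birc3 and Zc3h12a) had an unadjusted p under 0.05. The median log2 fold change was 0.19, beside 0.00 over all genes. Against unchallenged controls, IL-1βlow + CYT raised 4 regulators, Tnfaip3, Tnip1, Birc3 and Zc3h12a, both relative to untreated cells (3.85% of all genes were higher) and relative to IL-1βlow cells (2.92% higher). Traf2 did not pass in either, with 0.73 (SE 0.126, adjusted p = 6.2e-04) and 0.51 (SE 0.125, adjusted p = 0.012). These comparisons share groups of libraries and are not independent of those above.

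Whether the response to CYT itself differed between preconditioned and other cells was tested by the interaction of IL-1βlow and CYT. It is the log2 response after preconditioning minus that without. For a gene that CYT raised, it is negative where the rise was smaller after preconditioning. A higher level in IL-1βlow than in untreated cells also lowers it. Birc3 (-1.63, SE 0.325, adjusted p = 0.0016) and Traf2 (-1.37, SE 0.176, adjusted p = 5.8e-05) were called, 2 of 8 where 5.20% of all genes were called in that direction. The Birc3 means behind it were 1.68, 3.01, 47.55 and 27.95 CPM from untreated to IL-1βlow + CYT, and those of Traf2 36.7, 42.7, 135.6 and 60.8 CPM. Zc3h12a lay at the fold change minimum (-0.99, SE 0.159, adjusted p = 3.4e-04) and passed or missed it depending on the scaling, with -1.02 under RLE size factors. Tnip1 had -0.47 (95% interval -0.81 to -0.14, adjusted p = 0.021) and Tnfaip3 -0.44 (95% interval -0.90 to 0.03, adjusted p = 0.10). Birc2, Cyld and Traf3 had -0.16, 0.44 and 0.11, with adjusted p of 0.63, 0.22 and 0.44.

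The genes around these regulators were taken from lists written from general knowledge. Of all genes tested, 10.0% were called higher and 11.6% lower after CYT, and 5.92% lower in IL-1βlow + CYT against CYT. Of the 4 other TRAF genes tested, 1 passed, Traf4. Traf4 rose after CYT (log2 fold change 1.78, SE 0.108, adjusted p = 5.1e-09) and was lower in IL-1βlow + CYT than in CYT cells (-1.03, SE 0.105, adjusted p = 2.8e-06), with group means of 90.8, 109, 313 and 153 CPM from untreated to IL-1βlow + CYT. Without the second CYT library or the third IL-1βlow + CYT library the second difference fell short of the minimum, at -0.96 and -0.95. Of the other IAP genes 3 of 5 were tested (Xiap, Birc5 and Birc6). After CYT 0 of these were called by edgeR's quasi-likelihood test, DESeq2 or exactTest, although all 3 had an unadjusted p under 0.05. All 3 were lower, by less than the minimum. The log2 fold changes were -0.76 for Xiap (adjusted p = 0.018), -0.83 for Birc5 (adjusted p = 9.7e-06) and -0.60 for Birc6 (adjusted p = 5.1e-05).

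Among partners of A20 and other deubiquitinases, 1 of 7 tested was called after CYT and the same gene was called in the reverse direction in IL-1βlow + CYT against CYT. This was Tnip2 (ABIN-2), with group means of 3.57, 3.44, 14.3 and 4.54 CPM and log2 fold changes of 2.00 (adjusted p = 3.1e-07) and -1.65 (adjusted p = 3.5e-06). Of the 3 subunits of the linear ubiquitin ligase, whose chains A20, ABIN-1 and CYLD recognise, Rnf31 (HOIP), the catalytic subunit, had the same course. Rnf31 had group means of 11.9, 14.9, 37.2 and 13.6 CPM, with log2 fold changes of 1.64 (adjusted p = 1.1e-07) and -1.45 (adjusted p = 9.5e-07). Tnip2 and Rnf31 in IL-1βlow + CYT cells differed from untreated cells by 0.34 (adjusted p = 0.21) and 0.19 (adjusted p = 0.36), whereas Tnip1 remained 6.59-fold above. Of all genes tested, 10.0% were called higher after CYT and 5.92% lower in IL-1βlow + CYT against CYT.

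**Figure D4:**
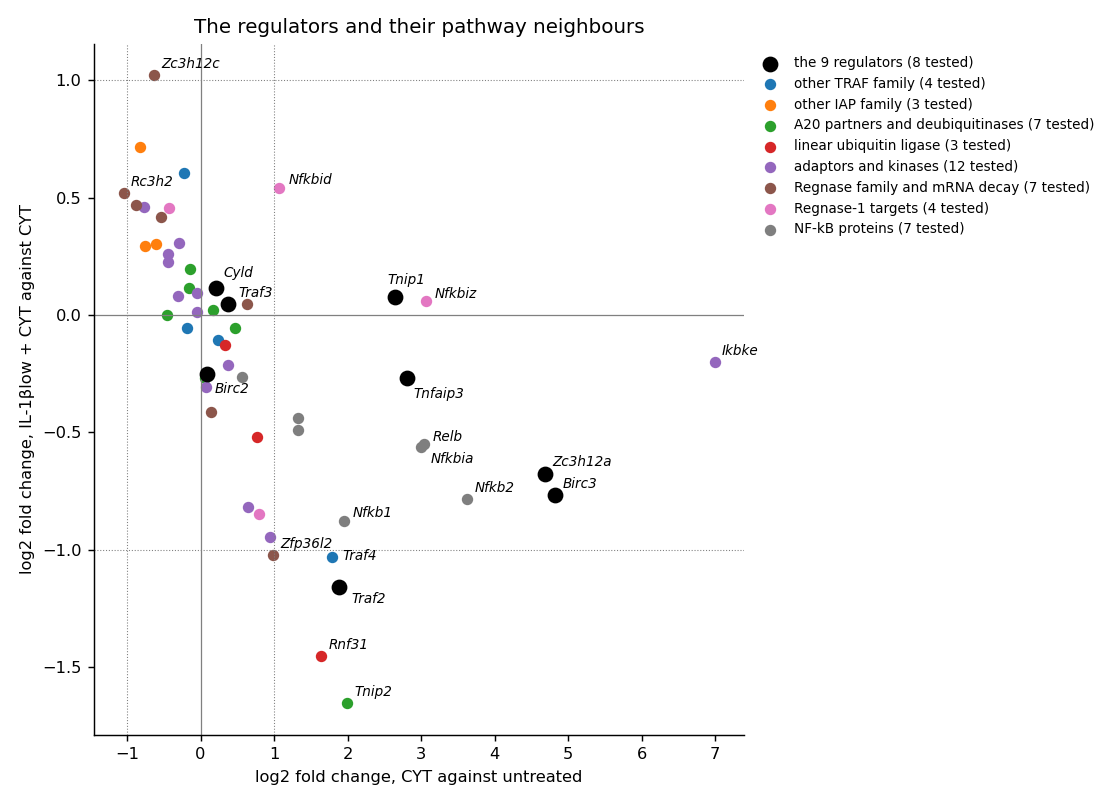
log2 fold change in CYT against untreated (horizontal) and in IL-1βlow + CYT against CYT (vertical) of the regulators (black) and of genes from the pathway lists (colours), each point 1 gene. Rel is drawn once, with the Regnase-1 targets, and dotted lines mark 1 in either direction. Traf2, Traf4, Rnf31 and Tnip2 lie at the lower centre, apart from Tnip1, Tnfaip3 and Nfkbiz. The axes share the CYT libraries, and no relation between them is read from the plot.

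Of the 12 adaptors and kinases tested (of 13), Ikbke was called higher after CYT, 8.33% of the list beside 10.0% of all genes. Ikbke encodes the inducible kinase IKKε and had 0 to 4 counts in untreated and 197 to 284 counts in CYT libraries, so that its fitted log2 fold change of 6.99 (adjusted p = 5.8e-09) is not a bound. Its mean level was 13.4 CPM after CYT alone and 11.7 CPM after IL-1βlow + CYT, a log2 fold change of -0.20 (adjusted p = 0.49). In IL-1βlow + CYT against CYT, edgeR's quasi-likelihood test called 12.5% of all genes. Of the 12, that test, DESeq2 and exactTest called 0. By the quasi-likelihood test 5 had an unadjusted p under 0.05, and 3 an adjusted p under 0.01. These 3 were lower by less than the fold change minimum.

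The NF-κB proteins, several of which are targets of the pathway, followed the regulators after CYT. Of 8 tested, 6 were called higher, led by Nfkb2 (log2 fold change 3.63, adjusted p = 5.2e-12), Relb (3.03, adjusted p = 1.8e-11), Nfkbia (3.00, adjusted p = 5.4e-11) and Nfkb1 (1.95, adjusted p = 7.9e-10). Of all genes tested, 10.0% were called higher. In IL-1βlow + CYT against CYT, edgeR's quasi-likelihood test called 12.5% of all genes. Of the 8 NF-κB proteins, that test, DESeq2 and exactTest called 0. All 8 had an unadjusted p under 0.05, and 7 an adjusted p under 0.01 with a difference short of the minimum. The values were -0.79 for Nfkb2, -0.55 for Relb, -0.56 for Nfkbia and -0.88 for Nfkb1.

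Regnase-1 belongs to a family that acts on messages together with other RNA-binding proteins. Of 7 tested genes of this family and of mRNA decay (of 9), Rc3h2 (roquin-2) fell after CYT (log2 fold change -1.05, adjusted p = 0.0016). Of all genes tested, 11.6% were called lower and 10.0% higher after CYT. In IL-1βlow + CYT against CYT, 6.54% of all genes were called higher and 5.92% lower. There Zc3h12c, a paralog of Zc3h12a, was higher (1.02, adjusted p = 1.2e-04) and Zfp36l2, which promotes decay of AU-rich messages, was lower (-1.02, adjusted p = 2.6e-06). Each of these 3 values is within 0.05 of the minimum. Rc3h2 fell short of it without the first untreated (-0.87) or the second CYT library (-0.86), Zfp36l2 without the third CYT library (-0.92), and Zc3h12c without any of several single libraries (0.86 at the lowest, without the third IL-1βlow + CYT library). Of 6 transcripts known from other systems as Regnase-1 targets 4 were tested, and 2 were called higher after CYT, Nfkbiz (3.06, adjusted p = 2.8e-09) and Nfkbid (1.07, adjusted p = 4.2e-05). In IL-1βlow + CYT against CYT, where Zc3h12a was 1.60-fold lower, edgeR's quasi-likelihood test, DESeq2 and exactTest called 0 of the 4, and 2 had an unadjusted p under 0.05. The 4 did not share a direction. Nfkbiz had 0.06 (adjusted p = 0.76), Nfkbid 0.54 (adjusted p = 0.0067), Tfrc 0.46 (adjusted p = 0.11) and Rel, which is also counted among the NF-κB proteins, -0.85 (adjusted p = 5.9e-04). Il6 and Il12b had 0 counts in every library.

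Genes whose course over the 12 libraries was most like that of each induced regulator were sought by the root mean square difference of log2 CPM, centred on the untreated mean, among 11489 genes with a mean log2 CPM above 2. The nearest to Traf2 were Traf4 (0.083 log2 units) and Sun2 (0.093), a protein of the inner nuclear membrane. Nearest to Zc3h12a was Csf1 (0.12), the macrophage growth factor, at 33.4, 43.5, 797 and 487 CPM, followed by Lif (0.286). For Birc3 they were Csf1 (0.329) and Tnfrsf11b (0.345), the decoy receptor osteoprotegerin. Those of Tnfaip3 were Itgav (0.203), an integrin subunit, and Nfkbia (0.206), and those of Tnip1 were Relb (0.244) and Relt (0.256). Among the regulators themselves Tnfaip3 and Tnip1 differed by 0.272, Birc3 and Zc3h12a by 0.367, and Traf2 and Traf3 by 0.789. Regulators not called after CYT lay about as close, with 0.278 for Cyld and Traf3, 0.291 for Birc2 and Cyld, and 0.363 for Birc2 and Traf3. These distances describe shared libraries and treatments, and no test was made of them.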

How the data were processed

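Poly(A) RNA libraries (TruSeq) of INS-1E cells were sequenced by the authors. Reads were inspected with FastQC, trimmed with rfastp, mapped to mRatBN7.2 with Rsubread and summarised per gene by featureCounts. What was deposited is the table of raw counts, as integers for each gene symbol, with no normalisation. The strand setting is not given in the sources used here. By GRCr8, Birc3 and Cyld each overlap 1 pseudogene, so that their values are less certain. The 12 count columns were assigned by their label and 0 were left over.

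R 4.3.3 with edgeR 4.0.16, DESeq2 1.42.0 and limma 3.58.1 was used. The filter required a CPM over 1 in 2 libraries or more, which left 14324 genes with 99.9% of counts. They were scaled by TMM (factors 0.968 to 1.04) and fitted by edgeR's quasi-likelihood test in 4 groups of 3 libraries (8 residual degrees of freedom, common biological coefficient of variation 0.123). The comparisons were 6 contrasts, the interaction included. Filter and thresholds are those of the study, which used exactTest. Each SE is the absolute log2 fold change divided by the square root of F. Between libraries of the same group the chi-square per degree of freedom was 7.08 to 27.4, so none was the same library sequenced again. That they came from separate cultures rests on the labels, since this value cannot show it. Rn45s took 6.89 to 11.1% of counts.

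Replicate numbers come from the labels, which do not state a shared culture. Deviations from the group mean correlated between same-numbered libraries at 0.116, 0.475 and 0.453 for IL-1βlow + CYT with CYT and at 0.179, 0.469 and 0.52 for IL-1βlow + CYT with IL-1βlow, all over 0.1, so the numbers were taken to pair these groups. In the pairs of each group with untreated cells they ran from -0.188 to 0.181, with both signs in each pair. The main fit and the permutation tests did not use the pairing, and a replicate block was an alternative.

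All 9 regulators are named, and from each list up to 4 genes with the largest change after CYT among those called after CYT or in IL-1βlow + CYT against CYT. For each regulator called after CYT the 2 genes of most similar course are named. The regulators, lists and tests were chosen with earlier results of these data known. As alternatives, RLE size factors, DESeq2, exactTest, no filter, a minimum of 10 counts per library, fits of 2 groups alone, a replicate block, a threshold of 0.05 with no minimum, glmTreat and the omission of each library were tried. On counts simulated for CYT against untreated cells (14026 genes), 96 of 100 genes changed by a log2 fold change of 1.5, 100 of 100 changed by 2.5 and 0 unchanged genes were called. For IL-1βlow + CYT against CYT (14027 genes) these numbers were 98, 100 and 1. Smaller changes were not simulated, so these counts do not bear on differences near the fold change minimum. Depth bounds counting error only, since reads carried no molecular identifiers.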

Additional observations from a re-analysis of the deposited data

Results flagged for a closer look

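The response to CYT differed between IL-1βlow-preconditioned and other cells by the interaction test (edgeR's quasi-likelihood test, adjusted over all genes) for 2 regulators and 7 genes of the lists. Such calls were common, since 10.7% of all 14324 genes tested were called in the interaction, 785 with a positive and 745 with a negative value. The regulators were Birc3, with a difference in log2 response of -1.63 (adjusted p = 0.0016), and Traf2, with -1.37 (adjusted p = 5.8e-05). The ligase subunit Rnf31 had -1.77 (adjusted p = 1.4e-05), Tnip2 had -1.60 (adjusted p = 3.5e-04), Traf4 had -1.29 (adjusted p = 2.6e-05) and Nfkb2 had -1.13 (adjusted p = 3.2e-05). Zc3h12c had a positive value, 1.27 (adjusted p = 7e-04), with group means of 22.0, 18.5, 14.1 and 28.7 CPM from untreated to IL-1βlow + CYT. The remaining list genes, outside the rule for naming and given after their values were seen, were Tfrc with 1.29 (adjusted p = 0.0065) and Tab1 with -1.001 (adjusted p = 9e-04). Tfrc had group means of 280, 157, 208 and 286 CPM in the same order. When 1 library was left out Tfrc ran from 1.06 to 1.65 and kept its call in 3 of 12 cases, and Tab1 ran from -1.14 to -0.90 and kept it in 9 of 12. With glmTreat only Rnf31 of the 9 genes passed (adjusted p = 0.0081).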

How the results depend on the processing

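The 5 regulators called after CYT stayed called in every alternative and without any single library, and Traf2 in IL-1βlow + CYT against CYT in all but glmTreat, with log2 fold changes of -1.29 to -1.04 when 1 library was left out. The number of regulators called in IL-1βlow against untreated cells was 1 with no filter on low counts (Birc3), 1 when only an adjusted p under 0.05 was asked for (Tnip1), and 0 to 1 without single libraries (Tnip1 without the third IL-1βlow library). At that looser threshold 3 were called in IL-1βlow + CYT against CYT, 7 in IL-1βlow + CYT against IL-1βlow and 4 in the interaction. The shares of all genes given above belong to the stricter rule. These looser counts therefore show only how the number depends on the threshold, not how the regulators compare with other genes. With glmTreat 0 were called in IL-1βlow + CYT against CYT and 0 in the interaction (Birc3 adjusted p = 0.2, Traf2 0.15), by its construction a stricter test. The interaction of Zc3h12a passed the minimum under RLE size factors and DESeq2 (both -1.02), no filter (-1.04), at least 10 counts (-1.004) and without some single libraries (-1.11 to -0.93).

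Of the log2 fold changes, 8 reversed without a single library, 0 of them called. Their ranges were -0.24 to 0.0084 (Birc2, IL-1βlow against untreated), -0.0505 to 0.23 (Birc2, CYT against untreated), -0.19 to 0.0843 (Birc2, IL-1βlow + CYT against IL-1βlow), and, in IL-1βlow + CYT against CYT, -0.0209 to 0.0594 (Traf3), -0.0011 to 0.15 (Tnip1) and -0.11 to 0.28 (Cyld). With 5 counts added to each gene, the log2 ratio in CYT minus untreated cells was 4.54 for Birc3 to Birc2 and -2.59 for Traf1 to Traf2, against -3.80 with 0.5 added. Without single libraries the Traf1 to Traf2 difference ran from -0.35 to 0.12 (IL-1βlow minus untreated) and from -0.44 to 1.119 (IL-1βlow + CYT minus CYT), and that of Tnfaip3 to Tnip1 from -0.0176 to 0.25 (CYT minus untreated). The causes were not tested.

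Adding a replicate block changed no call of a regulator, and Traf2 in IL-1βlow + CYT against CYT had -1.16 (adjusted p = 3e-07) and the Birc3 interaction -1.64 (adjusted p = 0.00027). Tab1 in the interaction fell short of the minimum under the block (-0.9945). Over all genes the block moved the calls in IL-1βlow against untreated cells from 62 to 141, where the numbers were not taken to pair the samples, and 9 of 12 libraries correlated best with their own number. Depth limits Traf1, with at most 8 counts in any library, and Birc3 in unchallenged cells.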

Other observations

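Birc2 was highest in the third replicate of its group in all 4 groups, and Birc3 and Cyld in 3 of 4, whereas Traf2 and Tnip1 were highest there in 0 of 4. This was noticed in the values and not tested.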
